A study of Mus musculus with 4 samples.

Results

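Sertoli cells are the supporting cells of the fetal testis. In the developing XY gonad, pre-supporting cells that express Sry switch on Sox9 and become Sertoli cells, which then enclose the germ cells in cords and instruct the other lineages through secreted signals such as anti-Müllerian hormone, desert hedgehog and FGF9. Without this switch the same precursors take the granulosa path of the ovary, which is marked by WNT4 and beta-catenin signalling, follistatin and FOXL2. The Sertoli cells described here were all cells that the authors' annotation names supporting cells, 946 of 52745 cells in the series. Of these, 752 came from XY control gonads at E11.5, 168 from XY miR-17~92 knockout (KO) gonads at E11.75, 24 from XY KO gonads at E11.5 and 2 from XX control gonads at E11.5.

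The XY control embryos came from the unedited G4 embryonic stem cell line, a C57BL/6J-129 F1 hybrid (the labels give C57BL/6 x 129S4/SvJae for all samples), and the KO embryos from G4 cells in which CRISPR had removed both copies of the miR-17~92 cluster, so that every cell of the embryo proper, and not only the gonad, lacked it. Both were made by tetraploid aggregation and each goes back to a single stem cell line, whereas the XX control embryos were bred from C57BL/6J males and 129 females. Gonads with attached mesonephros from several embryos were pooled into 1 sample per group and profiled by droplet-based 3′ single-cell RNA-seq. With 1 sample per group, no p-value can be given. Intervals below are 95% intervals that cover counting error only, and they say nothing of the spread between embryos. The KO cells at E11.75 were set against control cells at E11.5, the only XY control stage. Effects of the deletion, of the later stage, of the edited stem cells and of the separate library therefore cannot be told apart. The study's methods give the cell numbers of the KO samples in the reverse order of the labels. The labels were followed. The E11.75 KO is the sample with a single library by the methods and in the files alike.

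The miR-17~92 cluster encodes 6 microRNAs of 4 seed families, all from the same primary transcript on chromosome 14. A microRNA represses messengers whose 3′ UTR pairs with its seed, bases 2 to 8 counted from the 5′ end. The mature sequences from RefSeq (GRCm38.p6) are shown because the sites examined further on are defined by them, with the seed in capitals:
miR-17-5p: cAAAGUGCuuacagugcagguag
miR-20a-5p: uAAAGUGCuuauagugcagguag
miR-18a-5p: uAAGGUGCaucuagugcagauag
miR-19a-3p: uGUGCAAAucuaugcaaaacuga
miR-19b-3p: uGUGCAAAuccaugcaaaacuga
miR-92a-3p: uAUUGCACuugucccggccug
miR-17-5p and miR-20a-5p share a seed, as do miR-19a-3p and miR-19b-3p.

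Mir17hg, the host transcript of the cluster, was counted at 13.0 CPM (a gene's UMIs scaled to a sum of 1000000 over all genes) in control Sertoli cells, from 54 UMIs, and at 110 CPM in KO E11.75 Sertoli cells, from 113 UMIs. The library is read from the 3′ end of transcripts, so these counts do not report on the mature microRNAs and check neither the deletion nor the label.

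Together the 752 control Sertoli cells gave 4152994 UMIs (median 5096 a cell) in 2 technical replicate libraries, called runs below, of 389 and 363 cells. The 168 KO E11.75 cells gave 1026574 UMIs (median 5571 a cell) in a single library. No Sertoli cell barcode was shared between libraries. The median mitochondrial share was 4.53% in the control and 6.20% in KO E11.75, and the transcript Gm42418, which overlaps a ribosomal RNA repeat, took 4164.5 against 9667 CPM. Both measures were also higher in the KO E11.75 cells of the pre-supporting type, at 6.16% against 4.40% and at 10854 against 4372 CPM. Totals that leave out these transcripts and the ribosomal protein and globin genes changed the counts of Sertoli genes past 2-fold little. In KO E11.75 over control, 320 were then higher and 192 lower, beside 340 and 185 with all genes in the totals. Any other part of theirs in the ratios below was not tested.

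The label comes from the authors' annotation, made from marker genes in these same counts, so the marker levels describe it and are no independent check. Sox9 (chr11:112782224-112787760, mm10) encodes the transcription factor that drives Sertoli fate, Amh (chr10:80805243-80807648) the anti-Müllerian hormone, Dhh (chr15:98891152-98898540) the ligand desert hedgehog, Cst9 (chr2:148835147-148838738) a cystatin, Cbln4 (chr2:172036233-172043466) a secreted cerebellin and Aard (chr15:52040107-52045722) a protein with alanine and arginine rich domains. Each of the 6 had its highest level among 13 cell types in control Sertoli cells. In KO E11.75, 5 of the 6 did, and Cbln4, with 2 UMIs, ranked at position 3. At least 1 of the 6 markers was detected in 99.0% of control and 92.0% of KO E11.75 Sertoli cells, against 40.1% and 22.1% of pre-supporting cells and 14.4% and 17.4% of mesonephros cells, each cell thinned to 3000 UMIs.

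Control Sertoli cells were first described against the control pre-supporting cells, the cells they arise from, which the deposited annotation calls bipotential progenitors. The annotation was made from the same counts, so these differences are a description of what the names hold, with no test. Of 9567 genes with at least 100 UMIs over both sums, 483 were at least 2-fold higher in Sertoli cells and 366 at least 2-fold lower (8.87% in either direction). The 10 highest log2 ratios among genes with at least 200 UMIs, leaving out mitochondrial, ribosomal protein and globin genes, belonged to Dhh, Col9a3, Mall, Amh, Ptgds, Mt3, Col27a1, Mmd2, Dusp15 and Nkd2. None of the 10 was above 7.23 CPM in control pre-supporting cells. Dhh was at 1.14 CPM in pre-supporting and 116 CPM in Sertoli cells, a log2 ratio of 6.59. Col9a3, a chain of the cartilage collagen IX, was at 2.41 and 198 CPM, and Ptgds, which makes prostaglandin D2, an inducer of Sox9 in neighbouring cells, was at 5.58 and 225 CPM. Amh was at 1.40 and 72.0 CPM.

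Of 27 genes of early Sertoli differentiation that passed the count minimum in this comparison, 17 were past 2-fold higher in control Sertoli cells and 1, the inhibin subunit Inha, was past 2-fold lower, beside 5.05% and 3.83% of all genes in the same directions. Inha was at 145 CPM in pre-supporting and 52.3 CPM in Sertoli cells. The list median was 2.01, beside -0.01 for all genes. Sox9 itself was already at 200 CPM in pre-supporting cells, so its log2 ratio of 2.24 was smaller than that of Fgf9, the growth factor that sustains Sox9, at 4.52. Sox8 and Sox10, the close relatives of Sox9, had ratios of 4.17 and 5.48, but from 99 and 129 UMIs in all control Sertoli cells.

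The genes that were lowest in control Sertoli relative to pre-supporting cells were Pcdh20, Fst, Bmp2, Lrrn3, Adm, Msx1, Ereg, Slitrk1, Calb1 and Il15. Among them are ovarian genes. Fst (chr13:114452290-114458951), which encodes follistatin, an antagonist of activins, was at 117 CPM in control pre-supporting cells and 4.09 CPM in control Sertoli cells, a log2 ratio of -4.79. Msx1, a homeobox gene of the early ovary, was at 119 and 12.8 CPM, and Wnt4, the female-promoting ligand, at 539 and 99.7 CPM. Of 16 ovarian genes that passed the count minimum, 9 were past 2-fold lower in control Sertoli cells and none was past 2-fold higher, beside 3.83% and 5.05% of all genes. Their median was -1.67, beside -0.01.

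In KO E11.75 Sertoli cells, Sox9 and Fgf9 were within 2-fold of the control level and several other Sertoli genes were not. The cells were named from marker genes in these same counts, so the Sox9 level of the named cells is no independent measure. Sox9 was at 944 CPM in control (958 and 927 CPM in its runs) and 790 CPM in KO E11.75 Sertoli cells, a log2 ratio of -0.26 (interval -0.37 to -0.15). Fgf9 was at 214 CPM (219 and 207 CPM in the runs) and 176 CPM, a ratio of -0.27 (-0.52 to -0.04). Both differences are larger than counting error and smaller than 2-fold, also with TMM factors, another scaling of the totals, at -0.52 for Sox9 and -0.54 for Fgf9. Sry was sparse in both, with 42 UMIs in the control and 15 in KO E11.75, a ratio of 0.56 whose interval of -0.43 to 1.41 holds 0.

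The other markers were lower in KO E11.75. Aard was at 562 CPM in the control (556 and 570 CPM in the runs) and 308 CPM in KO E11.75, a ratio of -0.87 (-1.04 to -0.70). Cst9 was at 460 CPM (432 and 493 CPM) and 187 CPM, a ratio of -1.29 (-1.52 to -1.08). Dhh was at 116 CPM (112 and 120 CPM) and 42.9 CPM, a ratio of -1.42 (-1.91 to -0.99). For each of these markers the KO E11.75 value lies below both control runs. Amh was at 72.0 CPM (77.4 and 65.5 CPM) and 34.1 CPM, from 299 and 35 UMIs, a ratio of -1.06 (-1.63 to -0.57). Cbln4 was at 92.9 CPM (94.9 and 90.5 CPM) and 1.95 CPM, from 386 and 2 UMIs, a ratio of -5.26 (-8.63 to -3.71). In KO E11.75 pre-supporting cells Cbln4 was at 5.67 CPM, a level that the counting interval in KO E11.75 Sertoli cells (0.24 to 7.04 CPM) holds.

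**Figure D1:**
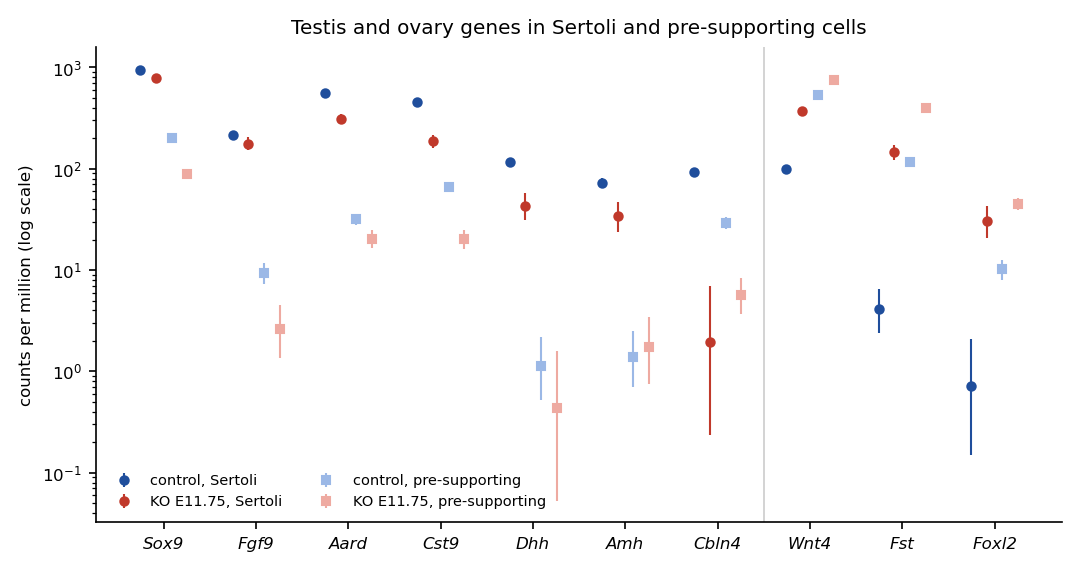
Level of 7 Sertoli genes (left of the line) and 3 ovarian genes (right) in CPM on a log axis, summed over Sertoli cells (circles) and pre-supporting cells (squares) of the XY control (blue) and XY KO E11.75 (red). Bars are 95% Poisson intervals of the count. Sox9 differs little between the samples in Sertoli cells (944 and 790 CPM), Cbln4 is at 92.9 and 1.95 CPM, and Fst and Foxl2 lie higher in KO E11.75 Sertoli cells (145 and 30.2 CPM) than in either control cell type.

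Across 7309 genes with at least 100 UMIs over both Sertoli sums, 340 were past 2-fold higher in KO E11.75 than in the control and 185 past 2-fold lower (7.18% in either direction, 4.65% higher and 2.53% lower). The balance depended on the scaling: with TMM factors (a trimmed mean of the ratios sets the scale) in place of total counts, 142 were higher and 430 lower, so that 24.8% instead of 64.8% of the genes past 2-fold were higher. The median log2 ratio of all genes was 0.14 with totals and -0.13 with TMM factors, and the ratios here are best read relative to the former. Between the 2 runs of the control, 1 of 6400 genes was past 2-fold (0.0156%). Those runs share the same cell pool, so they measure the technical part of the spread alone.

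Genes of early Sertoli differentiation were mostly lower. Of 30 listed, 26 passed the count minimum, of which 11 were past 2-fold lower and none past 2-fold higher, beside 2.53% and 4.65% of all genes. Their median log2 ratio was -0.84, beside 0.14 for all genes, and 18 had an interval wholly below 0. The 11 were Sox8, Sox10, Amh, Dhh, Cst9, Cbln4, Tesc, Col9a3, Cyp26b1, Hsd17b3 and Pdgfa. Amh, Dhh, Cst9 and Cbln4 among them are also markers that describe the label, so they are no independent check. Sox8, Sox10 and Hsd17b3, with few UMIs in KO E11.75, reached the count minimum through the control, whose sum was larger. Amh (-0.91) and Sox10 (-0.96) were within 2-fold with a prior count of 5, Amh also in cells with at least 5000 UMIs and with control run 2 alone. With TMM factors, which lower every ratio by the same shift, Aard (-1.13) and Ptgds were past 2-fold lower too, so that more than 11 were. Tesc, a calcium-binding protein of the early testis, was at 216 CPM in the control and 67.2 CPM in KO E11.75, a ratio of -1.67 (-2.06 to -1.33). Cyp26b1, which degrades retinoic acid and keeps it from the germ cells of the testis, was at 264 and 97.4 CPM, a ratio of -1.43 (-1.75 to -1.14). Pdgfa, a growth factor for the interstitium, was at 174 and 33.1 CPM, a ratio of -2.37 (-2.93 to -1.90).

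The list was uneven. Mmd2 was at 128 and 118 CPM, Mro at 80.7 and 69.2 CPM and Inhbb, the activin beta B subunit, at 143 and 133 CPM, all with intervals that hold 0. Ptgds, at 225 and 127 CPM, lay in between with a ratio of -0.82 (-1.10 to -0.56). Sox8 was at 23.8 and 4.87 CPM, from 99 and 5 UMIs, a ratio of -2.16 with a wide interval of -3.95 to -1.02. Hsd17b3, a steroid dehydrogenase by which fetal Sertoli cells complete testosterone synthesis, was counted 109 times in the control and 2 times in KO E11.75. Only Dmrt1 and Nr0b1 of the 26 had ratios above 0, at 0.46 and 0.24, both with intervals that hold 0, and Nr0b1 was at -0.02 with TMM factors.

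Genes of the early ovary differed in the other direction. Of 12 that passed the count minimum, 7 were past 2-fold higher in KO E11.75 Sertoli cells and none past 2-fold lower, beside 4.65% and 2.53% of all genes, with a median of 1.59 beside 0.14. Fst was counted 17 times in the control, at 4.09 CPM (3.96 and 4.26 CPM in the runs), and 149 times in KO E11.75, at 145 CPM, a log2 ratio of 5.11 (4.42 to 5.97). It thus passed the count minimum through KO E11.75, where it was higher. Msx1 and Lef1, too, were below that minimum in the control alone. The 7 therefore include genes kept by the sample in which they were higher. Msx1 was at 12.8 and 109 CPM, a ratio of 3.09 (2.61 to 3.60). Lef1, a partner of beta-catenin on DNA, was at 13.0 and 71.1 CPM, a ratio of 2.45 (1.92 to 2.99). The KO E11.75 Sertoli levels of Fst and Lef1 were thus above those of control pre-supporting cells (117 and 51.5 CPM), and that of Msx1 was near it (119 CPM). In KO E11.75 pre-supporting cells Fst was at 402 CPM, Msx1 at 183 CPM and Lef1 at 94.3 CPM, all above the KO E11.75 Sertoli levels.

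Wnt4 was at 99.7 CPM (92.7 and 108 CPM in the runs) and 371 CPM, a ratio of 1.90 (1.69 to 2.10). Axin2 and Nkd1, which are induced by beta-catenin signalling and dampen it, had ratios of 1.60 (1.03 to 2.16) and 1.62 (1.23 to 2.01). Cdkn1b, a cell cycle inhibitor that marks early granulosa cells, had 1.57 (1.23 to 1.91). The remaining members past the minimum were Kitl, Fzd1, Rspo1, Runx1 and Ctnnb1, with ratios from 0.00 for Ctnnb1, beta-catenin itself, to 0.89 for Kitl and Fzd1.

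The other 9 ovarian genes were too sparse for the count. Foxl2 (chr9:98955288-98958543, mm10), the transcription factor that maintains granulosa identity, was counted 3 times in 752 control cells and 31 times in 168 KO E11.75 cells, at 0.722 and 30.2 CPM, a ratio of 5.19 (3.70 to 7.74). Its KO E11.75 level was 45.1 CPM in pre-supporting and 69.4 CPM in supporting-like cells. Sp5, a target of beta-catenin, was counted 30 and 61 times, a ratio of 3.03 (2.39 to 3.72). Bmp2 and Irx3 were counted 11 and 24 times in the control and 11 and 20 times in KO E11.75. The control total was larger (4152994 against 1026574 UMIs), so relative to the totals both were higher in KO E11.75, from few counts. Genes of mature granulosa cells were at or near 0 in both samples, with 0 and 1 UMIs of Esr2 and none of Cyp19a1.

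The same ratios were next set beside those of pre-supporting cells. Both comparisons rest on the same embryos, so they are given side by side. Of all genes tested in pre-supporting cells, 3.79% were past 2-fold higher and 1.68% lower in KO E11.75 (5.47% in either direction), and in mesonephros cells 3.23% and 1.28%. Of the 12 ovarian genes, Fst, Axin2 and Fzd1 were past 2-fold higher in pre-supporting cells and none was lower. For the ovarian list the median was 0.62 in pre-supporting cells, beside 1.59 in Sertoli cells, and 10 of the 12 members had the higher ratio in Sertoli cells, beside 52.9% of all genes. For Fst the ratio was 1.79 in pre-supporting and 5.11 in Sertoli cells, for Msx1 0.62 and 3.09, and for Wnt4 0.48 and 1.90. In 7 of the 12 genes the interval of the difference between the cell types was wholly above 0, beside 10.5% of all genes, and in none wholly below, beside 8.41%. Fst was lower in KO E11.75 mesonephros cells, with a ratio of -1.12, and higher in the supporting-like cells, at 58.3 CPM in the control and 203 CPM in KO E11.75.

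Of the 26 early Sertoli genes, 16 also had at least 100 UMIs over both pre-supporting sums. Their medians were -0.44 in Sertoli and -0.71 in pre-supporting cells, beside 0.14 in each for all genes tested in Sertoli cells. In pre-supporting cells 5 of the 16 were past 2-fold lower and none higher, beside 1.68% and 3.79% of all genes tested there. Of those 5, Cst9, Cbln4, Tesc and Pdgfa were past 2-fold lower in Sertoli cells too, whereas Sox9 was not. Over the 26, the interval of the difference between the cell types was wholly above 0 for 6 and wholly below 0 for 9. Of all genes, 10.5% and 8.41% had such intervals. Sox9 and Fgf9 had ratios of -1.18 and -1.78 in pre-supporting cells, beside -0.26 and -0.27 in Sertoli cells, that of Fgf9 in pre-supporting cells from 73 and 12 UMIs. Nedd9 had a ratio of 0.72 in pre-supporting and of -0.43 in Sertoli cells. In mesonephros cells the 6 markers had a median of -1.33, with 5 lower in KO E11.75 and Sox9, which mesonephros cells also express, higher by 0.65. Free RNA in the droplets can give such counts, and its part in the Sertoli ratios was not tested.

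**Figure D2:**
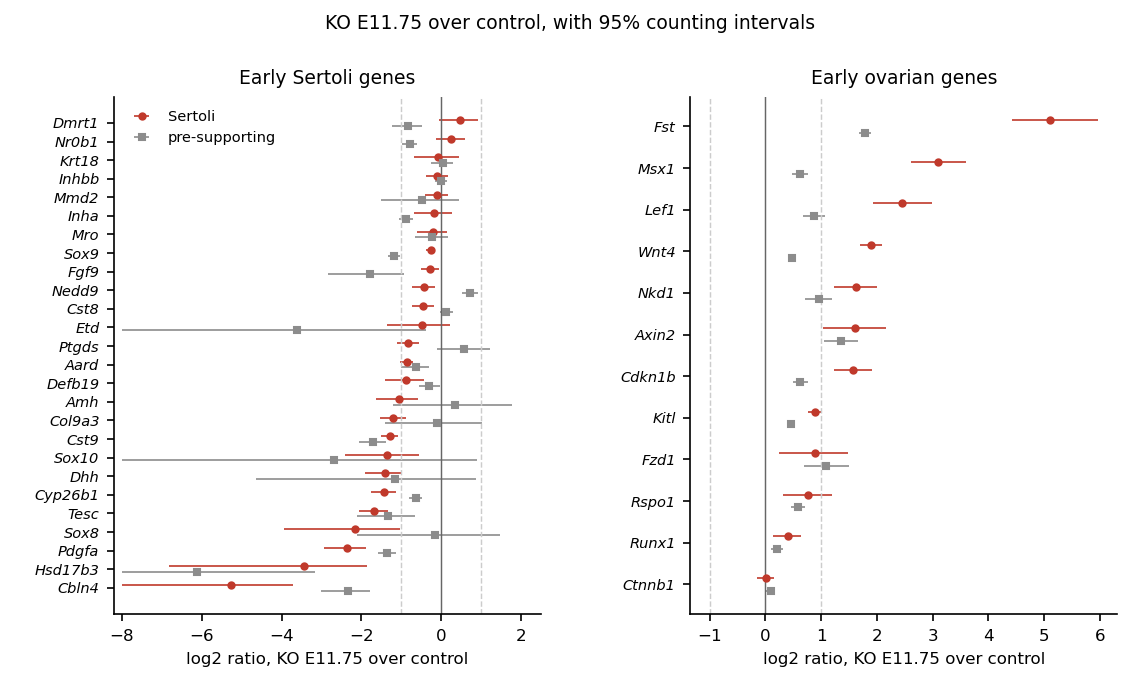
Log2 ratio of KO E11.75 over control for the 26 early Sertoli genes (left) and 12 early ovarian genes (right) that passed the count minimum in Sertoli cells, in Sertoli cells (red circles) and pre-supporting cells (grey squares). Bars are 95% counting intervals, drawn to -8 at most, and dashed lines mark 2-fold. Of the 12 ovarian genes, 10 lie further to the right in Sertoli cells and 2 further to the left, with Fst at 5.11. In Sertoli cells the Sertoli genes spread from 0.46 for Dmrt1 to -5.26 for Cbln4.

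Genes that act before or beside Sry differed less. Of 16 testis trigger genes past the minimum, 3 were past 2-fold higher and none past 2-fold lower, beside 4.65% and 2.53% of all genes, with a median of 0.47 beside 0.14. Those 3 were Emx2 (116 and 333 CPM, ratio 1.52), Insr, the insulin receptor (17.6 and 44.8 CPM, 1.36), and Lhx9 (40.7 and 92.5 CPM, 1.19, and 0.92 with TMM factors). Emx2 and Lhx9 are transcription factors of the early gonad that control Sertoli cells had at lower levels than pre-supporting cells, by log2 ratios of -1.32 and -2.65. Nr5a1, Gata4 and Gadd45g had ratios of -0.42, -0.40 and -0.61, with intervals below 0, and Wt1 and Zfpm2 had 0.44 and 0.62, with intervals above 0.

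In the FGF and MAPK list, 1 of 10 genes was past 2-fold, the receptor Fgfr2, at 16.1 CPM in the control and 76.0 CPM in KO E11.75 (ratio 2.23, interval 1.75 to 2.73). Among secreted signals, 3 of 15 were higher (Fst, Igf1 and Igf2) and 3 lower (Amh, Dhh and Pdgfa), beside 4.65% and 2.53% of all genes. Igf1 was at 14.9 and 75.0 CPM, a ratio of 2.33 (1.83 to 2.84), and Igf2 at 23.4 and 82.8 CPM, a ratio of 1.83 (1.39 to 2.26). H19, the imprinted RNA next to Igf2, had the lowest ratio of all named genes, with 2062 UMIs in the control and 5 in KO E11.75 (-6.53, interval -8.30 to -5.45), and was as low in pre-supporting and mesonephros cells (-7.16 and -7.69). In the Notch and hedgehog list Notch1 and Gli3 were past 2-fold higher and Dhh lower, of 8 genes, and with TMM factors Notch1 and Gli3 were at 0.88 and 0.78. The hedgehog receptor Ptch1 had a ratio of 0.25 whose interval holds 0.

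Matrix genes were on the higher side. Of 16 past the minimum, 5 were past 2-fold higher (Fn1, Hspg2, Agrn, Itga6 and Col1a1) and 1 lower (Col9a3), beside 4.65% and 2.53% of all genes, with a median of 0.70 beside 0.14. With TMM factors Fn1 and Agrn were within 2-fold, at 0.74 and 0.90, and Fn1 was so too with totals that leave out Gm42418 and the mitochondrial, ribosomal protein and globin genes. The laminin receptor chain Itga6 was at 126 and 433 CPM, a ratio of 1.78, and the perlecan gene Hspg2 at 21.7 and 63.3 CPM, a ratio of 1.55. The abundant matrix genes Sparc and Col18a1 were at 1225 and 1225 CPM and at 879 and 795 CPM. The list median was 0.58 in pre-supporting and 0.59 in mesonephros cells, so it was higher there as well.

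Glycolytic genes were on the lower side, with 2 of 16 past 2-fold lower, beside 2.53% of all genes, and none higher, and a median of -0.38 beside 0.14. Ldhb, a lactate dehydrogenase, was at 6559 CPM in the control and 1997 CPM in KO E11.75, a ratio of -1.72 (-1.78 to -1.65), and Gapdh had -1.10 (-1.23 to -0.98). Ratios of Ldhb were -1.49 in pre-supporting and -0.97 in mesonephros cells. In the cholesterol synthesis list, the median ratio was 0.48 in Sertoli, 0.16 in pre-supporting and -0.20 in mesonephros cells.

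In the cell cycle lists few genes were past 2-fold, beside 4.65% of all genes higher and 2.53% lower, shares that hold for the other lists of this paragraph too. None of 16 S phase genes was past 2-fold, and 1 of 9 G2 and M phase genes was, Ube2c, at 93.7 and 39.9 CPM (ratio -1.21). All 9 had ratios below 0, with a median of -0.36, but 6 of the 9 intervals hold 0. Of 7 G1 genes, Cdkn1b was past 2-fold higher, the median was 0.50, beside 0.14 for all genes, and 5 intervals were wholly above 0. Of 9 junction genes, Cdh11 was past 2-fold higher at 40.0 and 90.6 CPM (ratio 1.18), but not with TMM factors (0.92), with means over cells (0.99) or with control run 2 alone (0.87), and the medians of the S phase and junction lists, 0.10 and 0.14, were below 0 with TMM factors. Of 10 markers of pre-supporting cells, Wnt4 and Lhx9 were past 2-fold higher and none past 2-fold lower, with a median of 0.32. Of their intervals 5 were wholly above 0 and 3 wholly below.

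By size alone, the 10 highest ratios in KO E11.75 over control Sertoli cells among genes with at least 200 UMIs belonged to Igfbp5, Podxl, Rmst, Pik3r3, Itga4, Wnt4, Slc7a2, Gxylt2, Itga6 and Peak1. Igfbp5, a secreted binding protein of insulin-like growth factors, was at 221 CPM in the control (214 and 230 CPM in the runs) and 1163 CPM in KO E11.75, a ratio of 2.40 (2.27 to 2.52). Podxl, a sialomucin of epithelial surfaces, was at 139 and 621 CPM, a ratio of 2.16 (1.99 to 2.32). Itga4, an integrin chain, was at 25.0 and 97.4 CPM in Sertoli cells but at 5.20 and 5.45 CPM in pre-supporting cells, so that among these 10 it alone had a pre-supporting ratio near 0 (0.08). The others had pre-supporting ratios from 0.48 for Wnt4 to 1.26 for Pik3r3.

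The 10 lowest were H19, Cbln4, Dusp15, Tspan4, Olfml3, Cited4, Pdgfa, Rgcc, Dct and Stc2. Dusp15, a phosphatase, was at 105 CPM in the control (100 and 110 CPM in the runs) and 9.74 CPM in KO E11.75, from 435 and 10 UMIs, a ratio of -3.36 (-4.50 to -2.53). It was among the genes highest in control Sertoli over pre-supporting cells, and its pre-supporting level was low in both samples, at 4.19 and 5.23 CPM. Tspan4, a tetraspanin, was at 50.8 and 4.87 CPM, a ratio of -3.25, and at 20.9 and 20.5 CPM in pre-supporting cells. Cited4 was at 131 and 23.4 CPM, and Dct, known for its part in pigment synthesis, at 236 and 50.7 CPM. Dusp15 and Tspan4 were thus lower in KO E11.75 Sertoli cells while their pre-supporting ratios, 0.33 and -0.03, were near 0.

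How far KO E11.75 Sertoli cells stood from their own pre-supporting cells was then compared with the control. Across 7927 genes, the log2 ratios of Sertoli over pre-supporting cells of the control and of KO E11.75, which share no cells, had a Pearson correlation of 0.72 and a Spearman correlation of 0.55. Over the same genes, the 2 control runs gave 0.87 and 0.72. Genes are not independent replicates, and both sides rest on cells named by one annotation. In KO E11.75, 206 of 7970 genes were past 2-fold higher in Sertoli cells (2.58%) and 153 past 2-fold lower (1.92%), which makes 4.50% beside 8.87% in the control, whose sums were deeper. With TMM factors 166 were higher and 190 lower, so that 46.6% instead of 57.4% of these genes were higher.

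To avoid choosing and measuring genes in the same counts, genes were chosen in control run 1 and measured in control run 2 and in KO E11.75. The 367 genes past 2-fold higher in Sertoli cells of run 1 had a median log2 ratio of 1.46 in run 2 and of 1.08 in KO E11.75, and 351 of them were above 0 in KO E11.75, beside 3077 of all 5355 genes with enough counts. The 291 genes past 2-fold lower had a median of -1.29 in run 2 and -0.74 in KO E11.75, with 262 below 0, beside 2278 of all. Both sets kept their direction in KO E11.75, at a smaller size. In Sertoli cells directly, KO E11.75 over control run 2, the first set had a median of -0.36 and the second of 0.66, beside 0.11 for all genes. Of the 291 genes of the second set, 108 were past 2-fold higher, beside 230 of the 5355. Of the 367 of the first, 73 were past 2-fold lower, beside 127 of the 5355. In the other direction, 12 of the second set were past 2-fold lower and 6 of the first past 2-fold higher. The sets had their count minimum in run 1, over Sertoli and pre-supporting cells. The 5355 had it over KO E11.75 and control run 2 Sertoli cells, so the sets need not lie within them.

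**Figure D3:**
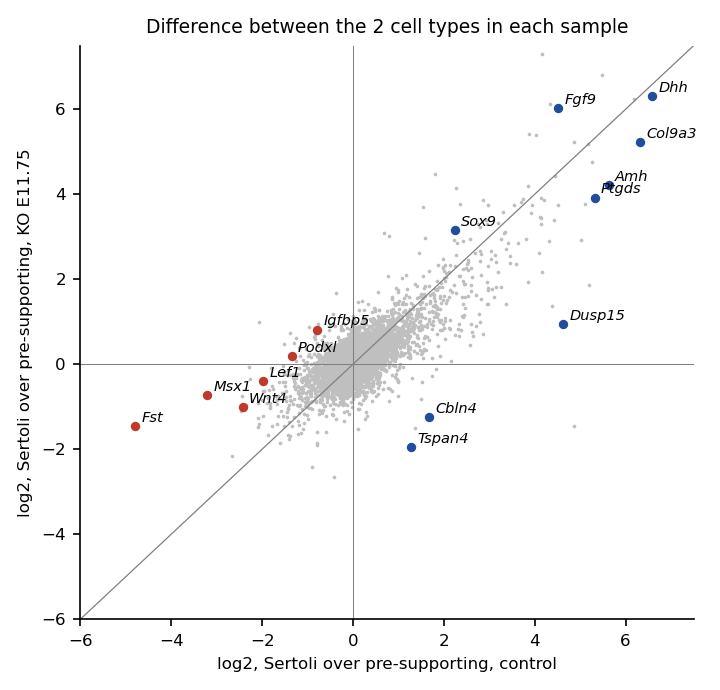
Log2 ratio of Sertoli over pre-supporting cells in the XY control (x axis) and XY KO E11.75 (y axis) for each of the 7309 genes tested in Sertoli cells (grey), with named Sertoli genes in blue and genes higher in KO E11.75 Sertoli cells in red. The line marks equal ratios. Dhh lies near the line (6.59 and 6.31), Fst and Msx1 lie closer to 0 on the y axis than on the x axis (-4.79 and -1.47, -3.21 and -0.74), and Dusp15, Cbln4 and Tspan4 lie far below the line.

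Single genes show both patterns. Dhh had ratios of 6.59 in the control and 6.31 in KO E11.75, and Mmd2 of 4.87 and 5.23, with differences of -0.27 (interval -2.33 to 1.78) and 0.36 (-0.57 to 1.29) that counting error covers. Sox9 had 2.24 and 3.16 and Fgf9 4.52 and 6.02, with intervals of the difference above 0 (0.73 to 1.12 and 0.61 to 2.40). By contrast Nr5a1, the steroidogenic factor, had 1.07 and 0.23, and Dusp15 had 4.63 and 0.94 (difference -3.69, interval -4.85 to -2.53). Fst had -4.79 and -1.47, a difference of 3.32 (2.60 to 4.05).

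Per cell, fewer markers were seen together in KO E11.75. Cells were thinned at random to 3000 UMIs, which left 701 control and 163 KO E11.75 Sertoli cells and dropped 51 and 5 shallower ones. At least 3 of the 6 markers were detected in 364 of the control cells, 51.9% (48.2 to 55.7%), and in 33 of the KO E11.75 cells, 20.2% (14.4 to 27.2%). In pre-supporting cells the same held for 1.02% and 0.120%, and in mesonephros cells for none of 7549 and none of 2270, which allows up to 0.0397% and 0.132%. Without thinning the Sertoli shares were 68.0% and 39.3%.

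Sox9 was detected in 87.9% of thinned control cells (85.2 to 90.2%) and 80.4% of KO E11.75 cells (73.4 to 86.2%). Aard was detected in 69.8% and 47.9%, Cst9 in 48.1% and 25.2%, Dhh in 25.0% and 12.9%, and Amh in 14.6% and 9.20%. Intervals of such shares cover counting over the cells of 1 pool, so their overlap is no test between the samples. Cbln4 was detected in 149 of 701 control cells, 21.3%, and in 1 of 163 KO E11.75 cells, 0.614% (0.0155 to 3.37%), beside 1.44% of KO E11.75 pre-supporting and 0.0881% of KO E11.75 mesonephros cells.

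**Figure D4:**
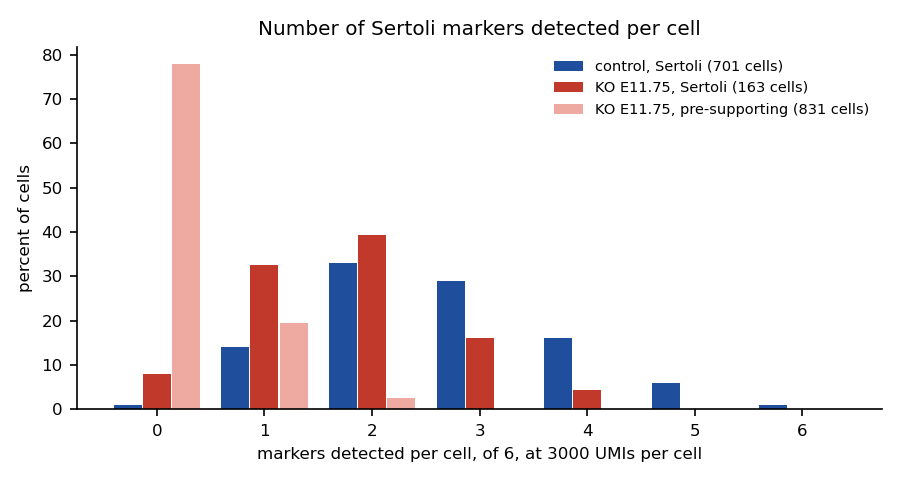
Percent of cells (y axis) by the number of the 6 Sertoli markers detected in the cell after thinning to 3000 UMIs (x axis), for control Sertoli cells (blue), KO E11.75 Sertoli cells (red) and KO E11.75 pre-supporting cells (pale). At least 3 markers were seen in 51.9% of control and 20.2% of KO E11.75 Sertoli cells.

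The ovarian genes were then looked up in the same cells as Sox9. Foxl2 was detected in 1 of 701 thinned control Sertoli cells, 0.143%, and in 14 of 163 KO E11.75 Sertoli cells, 8.59% (4.78 to 13.99%), beside 2.72% and 11.79% of pre-supporting and 0.172% and 0.264% of mesonephros cells at the same depth. Both Sox9 and Foxl2 were detected in none of the control cells, which allows up to 0.428%, and in 10 of the KO E11.75 cells, 6.13% (2.98 to 10.99%). The KO E11.75 share was 2.99% at 2000 UMIs and 7.89% at 5000 UMIs, and without thinning the shares were 0.399% and 11.9%. In thinned pre-supporting cells both were detected in 0.341% of the control and 2.17% of KO E11.75. Sox9 was found in 10 of 14 KO E11.75 cells with Foxl2 (71.4%, 41.9 to 91.6%) and in 121 of 149 without (81.2%), so at this depth no difference was detectable. The 10 cells with both had a median of 6445 UMIs before thinning, against 5532 for the 121 with Sox9 alone. Another of the 6 markers was seen in 4 of the 10 and in 86 of the 121.

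Fst, a gene picked for this look after its ratio was seen, gave more counts. It was detected in 8 of 701 control cells, 1.14%, and in 43 of 163 KO E11.75 cells, 26.4% (19.8 to 33.8%), where it was joined by Sox9 in 34 cells. Sox9 was detected in 79.1% of KO E11.75 cells with Fst and 80.8% of those without. In pre-supporting cells Fst was detected in 16.01% of the control and 40.3% of KO E11.75, together with Sox9 in 3.47% and 7.58%, and in mesonephros cells Fst was detected in 7.83% and 3.52%. The 34 cells with both had a median of 5387 UMIs before thinning, and the 97 with Sox9 but not Fst a median of 5637.

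Of the 34 cells with Sox9 and Fst, 14 had any of the other 5 markers, against 76 of the 97 cells with Sox9 but not Fst. Among all KO E11.75 cells with Sox9 detected, unthinned, Fst was at 137 CPM, and in the 91 cells at or above the median Sox9 count it was at 106 CPM (81.3 to 136 CPM). In the control, the 376 cells at or above their median Sox9 count had 2.65 CPM. In the 14 KO E11.75 cells without Sox9, Fst was at 255 CPM (154 to 399 CPM).

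Restricting both samples to cells with at least 3 of the 6 markers, 511 control and 66 KO E11.75 cells, a choice made after seeing the data, gave ratios of 2.92 for Msx1 (2.25 to 3.59), 2.57 for Lef1 (1.82 to 3.32) and 1.69 for Wnt4 (1.39 to 1.98), close to those of all cells. Fst had 3.27 (2.32 to 4.30) from 16 and 24 UMIs, below its 5.11 in all cells. Dusp15 had -3.17 (-4.74 to -2.15). No value is drawn here for the 6 markers, which chose the cells.

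For context, XX control pre-supporting cells, in which no Sertoli fate is taken, had Fst at 237 CPM, Foxl2 at 16.7 CPM, Wnt4 at 756 CPM, Msx1 at 179 CPM and Sox9 at 9.29 CPM. The XX sample was sequenced to a median of 17499 UMIs per pre-supporting cell and came from other crosses, so the values are set side by side only. KO E11.75 Sertoli cells, at 145, 30.2, 371 and 109 CPM for these ovarian genes and 790 CPM for Sox9, held transcripts of both sets.

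Sites of the cluster were then looked up in the 3′ UTRs of genes tested in Sertoli cells, using the longest annotated 3′ UTR of GENCODE M21. An 8mer site was taken as the complement of seed bases 2 to 8 followed by an A opposite base 1, that is GCACTTTA for the miR-17 family, GCACCTTA for miR-18, TTTGCACA for miR-19 and GTGCAATA for miR-92, searched on the transcript strand only. Of 7174 genes with a 3′ UTR, 1049 (14.6%) held at least 1 such site. Their median log2 ratio of KO E11.75 over control in Sertoli cells was 0.35, beside 0.11 for the other 6125, and 7.63% of them were past 2-fold higher, beside 4.08% of the others. The difference of 0.24 was like that in pre-supporting (0.25) and mesonephros cells (0.25), and it was -0.01 between the control runs.

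The length of the 3′ UTR moved with the ratio too, and long 3′ UTRs hold more sites. Across the 7174 genes the Spearman correlation of 3′ UTR length with the Sertoli ratio was 0.34, beside 0.43 in pre-supporting cells, 0.48 in mesonephros cells and 0.00 between the control runs. With the genes split into 5 equal groups by length, the difference between genes with and without an 8mer site was -0.10, 0.16, 0.06, 0.13 and 0.05 from the shortest to the longest group, the first resting on 14 genes with a site. A site therefore went with a higher ratio in 4 of 5 groups, by 0.05 to 0.16, less than the 0.24 over all lengths. Why length moves with the ratio was not tested.

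**Figure D5:**
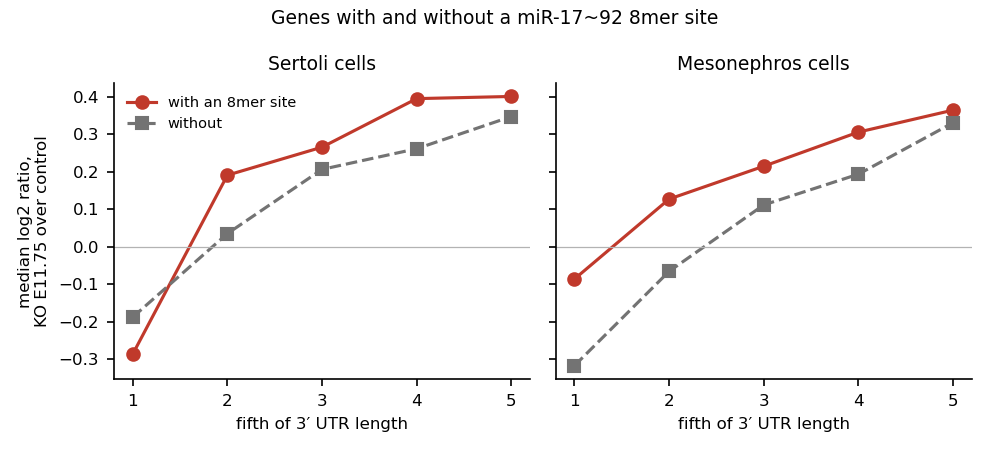
Median log2 ratio of KO E11.75 over control (y axis) for genes with (red circles) and without (grey squares) a miR-17~92 8mer site, in 5 groups of 3′ UTR length from shortest (1) to longest (5), in Sertoli cells (left) and mesonephros cells (right). Both lines climb with length, and in Sertoli cells the line with sites lies 0.05 to 0.16 above the other in groups 2 to 5.

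Of the 30 genes listed as known targets of the cluster, 15 passed the count minimum, and all 15 had ratios above 0, with a median of 0.52, beside 0.14 for all genes. Of these, 3 were past 2-fold higher, beside 4.65% of all genes, and none with TMM factors: Ptpn4, a phosphatase (41.9 and 94.5 CPM, ratio 1.18), Stat3 (25.5 and 56.5 CPM, 1.15) and Bcl2l11, which encodes the pro-apoptotic factor BIM (39.5 and 79.9 CPM, 1.02, interval 0.62 to 1.41). With TMM factors they were at 0.91, 0.88 and 0.75. Ratios of Bcl2l11 were -0.28 in pre-supporting and 0.43 in mesonephros cells, and those of Ptpn4 were 0.79 and 0.60. The lowest, Hif1a at 0.08, was at -0.19 with TMM factors, which lower every ratio by the same shift. The list median was 0.38 in pre-supporting and 0.43 in mesonephros cells. The listed genes were not matched to others for 3′ UTR length.

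Among the 10 genes highest by size, 9 had an annotated 3′ UTR and 4 held an 8mer site (Pik3r3, Itga4, Slc7a2 and Peak1), and of the 10 lowest 2 did (Cbln4 and Stc2). The sites of the 4 highest and of Bcl2l11 are shown as examples in which a site and a ratio past 2-fold meet, as windows of 22 bases of the transcript (GRCm38), the 8mer in capitals:
Pik3r3, miR-19 site, chr4:116299918-116299939: tgcttgtTTTGCACAagtgatt
Itga4, miR-17 site, chr2:79327740-79327761: aaatatcGCACTTTAgctgata
Slc7a2, miR-18 site, chr8:40920397-40920418: aatactcGCACCTTAccttctc
Slc7a2, miR-17 site, chr8:40920781-40920802: tttagcaGCACTTTAacaggtt
Peak1, miR-18 site, chr9:56204753-56204774 (minus strand): ttgggtgGCACCTTAgtggcct
Bcl2l11, miR-17 site, chr2:128160445-128160466: gactggaGCACTTTActgtctc
Bcl2l11, miR-92 site, chr2:128162442-128162463: tgtacctGTGCAATActgctgt
A match is a description and not evidence that the site is used. Of the 330 genes with a 3′ UTR past 2-fold higher, 24.2% held an 8mer site, and of the 174 past 2-fold lower 8.62%, with median 3′ UTR lengths of 2407 and 882 bases.

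Transcripts of other cell types were also counted. The 7 erythroid markers summed to 2313 CPM in control and 1207 CPM in KO E11.75 Sertoli cells, beside 2247 and 1364 CPM for the 6 Sertoli markers. The 8 immune markers summed to 20.7 CPM in control and 4.87 CPM in KO E11.75 Sertoli cells, with 4 at 0 in KO E11.75 and 1 of these also in the control, the 8 endothelial markers to 27.9 and 43.8 CPM, and the 8 germ cell markers to 99.4 and 72.1 CPM, with Sox2 at 0 in KO E11.75. The 7 adrenal markers summed to 428 and 280 CPM, most of it from Nr5a1, which the gonad also expresses, with a ratio of -0.42. Of the 3 that passed the count minimum, Cyp11a1 and Hsd3b1, enzymes of steroid synthesis, were past 2-fold lower, beside 2.53% of all genes. Cyp11a1 was at 40.9 and 9.74 CPM and Hsd3b1 at 29.1 and 7.79 CPM. The 7 neural crest markers, Sox10 among them, summed to 56.3 and 33.1 CPM.

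Lists nearer to the gonadal lineages had higher sums in KO E11.75, but not in every member. The 6 markers of supporting-like cells summed to 625 and 1548 CPM. That rise rested on Igfbp5, at 221 and 1163 CPM, while Nr5a1 of the same list was lower (ratio -0.42). Pax8, which defines those cells, was at 5.06 and 31.2 CPM from 21 and 32 UMIs. The 8 interstitial markers summed to 364 and 575 CPM. Of the 6 that passed the count minimum, Nr2f2 and Nr2f1 were past 2-fold higher, beside 4.65% of all genes. Their ratios were 1.33 and 1.10 (0.83 for Nr2f1 with TMM factors). The 7 mesenchymal markers summed to 275 and 441 CPM, and the 7 coelomic epithelial markers to 83.1 and 116 CPM. Of the coelomic markers none was past 2-fold, Msln was at 0 in KO E11.75 and Lhx2 at 0 in both. The 8 mesonephric tubule markers summed to 150 and 402 CPM, of which Emx2, which the gonad also expresses, took 116 and 333 CPM, and Lhx1 was at 0 in KO E11.75. The part of such cells in the ratios above was not tested.

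The 24 cells of the XY KO E11.5 sample held 151331 UMIs and the 2 cells of the XX control 48204. In the 24 cells Sox9 was at 555 CPM, Cst9 and Ptgds each at 72.7 CPM and Wnt4 at 621 CPM, with 2 UMIs each of Amh and Dhh and none of Col9a3. At least 1 of the 6 markers was detected in 20 of the 24 thinned cells and at least 3 in 1. Sox9 was detected in 16 of them and Wnt4 in 15. No comparison was drawn from so few cells.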

How the data were processed

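Members, gene lists, comparisons and rules were chosen with earlier results of these data known. The authors, per the labels and methods, aligned reads with Cell Ranger 6.1.1 to mm10, with an extra Sry exon, filtered cells on mitochondrial and globin content, UMIs and genes (XX cells by cluster), removed doublets with DoubletFinder and integrated the samples in Seurat to name cells. The deposited counts are raw UMI counts per gene and cell, and all nonzero values were whole. The deposited percent columns give each cell's mitochondrial and globin share. No further cell or doublet was removed here.

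UMIs were summed over the cells of a sample and type. Log2 ratios of CPM used a prior count of 0.5, with exact binomial intervals. CPM have exact Poisson intervals and shares Clopper-Pearson intervals, at 95%. A count of 0 allows the level of 3 counts. With 1 sample per group no test was possible, so genes with at least 100 UMIs over both sums and at least a 2-fold difference were counted. The text names the 6 markers, members of lists past 2-fold or otherwise the most abundant, and by size the 10 highest and 10 lowest ratios among genes with at least 200 UMIs, leaving out globin, ribosomal protein and mitochondrial genes. The interval of a difference between 2 log2 ratios uses the normal approximation to the counts. Alternatives were TMM factors (edgeR 4.0.16, R 4.3.3), totals that leave out Gm42418 and globin, ribosomal protein and mitochondrial genes, mean CPM over cells, a prior of 5, minimums of 50 and 500, 3-fold, single control runs, cells with at least 5000 UMIs, other thinning and other sites. Steps were checked on simulated counts. Positions and 3′ UTRs are from GENCODE M21 (98.6% of 21495 symbols found), microRNAs from RefSeq. Counting used Python 3.11.15 with scipy 1.17.1. Some genes are not reported here.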

Additional observations from a re-analysis of the deposited data

Results flagged for a closer look

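The log2 ratio of Sertoli over pre-supporting cells had one sign in control gonads and the opposite sign in KO E11.75 gonads for 10 named genes, with both counting intervals on their own side of 0. They came from a scan of all listed genes and those named by size, and the share of all genes with such a switch is not given. Their number therefore does not tell whether such switches were more or less common among the named genes than elsewhere. With 1 sample per group the difference between the samples was not tested.

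In the control 9 of them were lower in Sertoli than in pre-supporting cells, and in KO E11.75 they were higher. Igfbp5 had -0.79 in the control and 0.81 in KO E11.75, and Podxl had -1.35 and 0.20. Igf2 had -0.55 and 0.43, the orphan receptor gene Nr0b1 -0.64 and 0.39, and Stat3 -0.53 and 0.80. Hmgcs1, an enzyme of cholesterol synthesis, had -0.33 and 0.24. Sprr2d, a marker of pre-supporting cells, had -2.07 and 0.99, from 91 UMIs in control and 22 in KO E11.75 Sertoli cells. Relative to the totals of 4152994 and 1026574 UMIs, its level in Sertoli cells was nearly the same in both samples. Its switch thus lay in a lower pre-supporting level in KO E11.75. For Nr0b1, too, counting error covered the difference between the samples in Sertoli cells. A switch is therefore not by itself a gain in KO E11.75 Sertoli cells. The last 2 are markers of other cell types: Pax8 had -1.57 and 1.08 and the endothelial receptor Kdr -0.59 and 0.79, with 32 and 26 UMIs in KO E11.75 Sertoli cells. Tspan4 was the only one in the other direction, with 1.28 in the control and -1.94 in KO E11.75, where it was counted 5 times.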

How the results depend on the processing

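Counts of genes past 2-fold in KO E11.75 over control Sertoli cells were 340 higher and 185 lower. They became 142 and 430 with TMM factors, 40 and 57 at a minimum of 500 UMIs, 636 and 281 at a minimum of 50, and 64 and 53 at 3-fold, where fewer or more genes can count by construction. With a prior of 5, 121 were lower. For Sertoli over pre-supporting cells, 483 higher and 366 lower in the control became 174 and 155 at a minimum of 500, and 206 and 153 in KO E11.75 became 33 and 34 at that minimum, with 92 lower at a prior of 5. Genes chosen at 3-fold in run 1 had medians of 2.12 and -1.88 in run 2 and of 1.66 and -1.03 in KO E11.75. At least 3 of 6 markers were seen in 36.1%, 70.7% and 68.0% of control and 12.6%, 36.0% and 39.3% of KO E11.75 cells at 2000 UMIs, at 5000 UMIs and without thinning, and both Sox9 and Foxl2 in 2.99%, 7.89% and 11.9% of KO E11.75 cells at those depths. The median of the early Sertoli list, -0.84, was -1.11 with TMM factors, -0.75 with control run 1 alone and -0.53 in cells with at least 3 markers, a choice that uses members of the list. That of the ovarian list, 1.59, was 1.32 with TMM factors and 1.48 in those cells. The difference of 0.24 between genes with and without an 8mer site was -0.10, 0.16, 0.059, 0.13 and 0.054 within the 5 groups of 3′ UTR length. Medians of the junction and S phase lists changed sign to -0.13 and -0.16 with TMM factors, and that of the secreted signals (-0.10) to 0.0064 with control run 2 alone. Amh (-1.06) was within 2-fold with a prior of 5 (-0.91), in cells with at least 5000 UMIs (-0.95) and with control run 2 alone (-0.93), and Sox10 (-1.36) with a prior of 5 (-0.96). The causes were not tested. Over 57 genes, which are Sox9, Aard and the genes named for a 2-fold difference or by size, and 7 alternatives, all 399 ratios kept their direction, and 13 left their counting interval, 10 of them with TMM factors. Most of these genes were chosen for large ratios in the same counts that the alternatives reuse. A kept direction was therefore largely set beforehand and is no independent support. Outside these 57 genes, Nr0b1, Hif1a, Ctnnb1, Sparc and Ptch1, with ratios near 0, fell below 0 with TMM factors. No paired analysis was possible because each group has 1 sample. With 168 KO E11.75 cells, genes with few UMIs carry wide intervals.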
